A study of Mus musculus with 8 samples.

Results

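The fibroblast growth factor (FGF) genes of the lung were examined across 4 wild-type and 4 Scgb3a2-transgenic mice. A probe was a member when the gene symbol of the authors' matrix began with Fgf, Fgfr, Fgfrl, Fgfbp, Spry or Spred followed by a number, which gave 37 of the 20920 genes named there, with 69 of 41174 probes. The labels give all mice as untreated males of the strain C57BL/6, 8 to 10 weeks old (the transgene was injected into eggs of C57BL/6NCr mice, per the methods), and RNA came from whole lung. The transgenic mice carry a mouse Scgb3a2 cDNA behind the human SP-C promoter, which drives expression in alveolar type II cells, and derive from 1 founder, so that effects of the insertion site and of the transgene cannot be told apart. Wild-type mice carry no transgene. Each array held the RNA of 1 mouse in Cy5 and a reference pool made from the samples in Cy3. Values are log2 ratios of mouse over pool, so 0 is the level of the pool, and a log2 fold change is the transgenic mean minus the wild-type mean.

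FGFs are secreted ligands that bind, together with heparan sulfate, to the receptor tyrosine kinases FGFR1 to FGFR4 and signal mainly through RAS and the MAP kinases. In the developing lung FGF10 from the mesenchyme drives branching through FGFR2 on the epithelium, and in the adult lung FGF7 and FGF10 act on the same receptor and support the alveolar epithelium. Sprouty and Spred proteins damp RAS and MAP kinase signalling, and several of their genes are themselves switched on by it, which makes them feedback genes.

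Promoters of 3 genes are shown so that a reader can place them. The brightest probes of Fgfr4 and Fgfbp1 had an unadjusted p under 0.05 by limma, and that of Spred2 had genotypes that did not overlap. Fgf11, for which only the dimmer probe had an unadjusted p under 0.05 by limma, is not shown. The promoter table is from RefSeq on GRCm38.p6. Member promoters on a single chromosome were left out, and 27 of the 37 genes then had an entry. The count over all windows left out no chromosome. For Fgfr4, Fgfbp1 and Spred2 the 250 bases before the start of the gene are printed 5′ to 3′ on the gene's own strand. Capitals mark matches, on either strand, to CCGGAA (the core letters read by ETS factors such as ETV4 and ETV5) and to GGGCGG (the letters read by SP1). The letters TGACTCA, read by AP-1, were searched as well and were in none of these 3 windows. Fgfr4 lies on the plus strand at chr13:55152568-55152817, Fgfbp1 on the minus strand at chr5:43981800-43982049 and Spred2 on the plus strand at chr11:19924192-19924441.
Fgfr4: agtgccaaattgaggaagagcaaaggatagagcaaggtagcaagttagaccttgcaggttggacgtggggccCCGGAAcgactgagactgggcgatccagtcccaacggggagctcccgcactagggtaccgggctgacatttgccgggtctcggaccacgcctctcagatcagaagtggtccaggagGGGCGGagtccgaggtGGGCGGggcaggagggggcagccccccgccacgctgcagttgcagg
Fgfbp1: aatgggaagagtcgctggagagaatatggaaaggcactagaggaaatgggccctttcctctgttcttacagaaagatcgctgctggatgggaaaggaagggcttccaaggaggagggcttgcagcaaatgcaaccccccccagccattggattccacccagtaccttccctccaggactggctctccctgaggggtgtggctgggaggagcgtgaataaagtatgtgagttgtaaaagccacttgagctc
Spred2: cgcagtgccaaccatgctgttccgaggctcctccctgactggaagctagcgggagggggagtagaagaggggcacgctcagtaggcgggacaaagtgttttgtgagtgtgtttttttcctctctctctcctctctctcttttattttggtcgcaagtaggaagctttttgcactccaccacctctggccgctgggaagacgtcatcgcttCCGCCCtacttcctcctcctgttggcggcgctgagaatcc

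The Fgfr4 window held 1 match to CCGGAA and 2 to GGGCGG, that of Spred2 held 1 match to GGGCGG, and that of Fgfbp1 held neither. Of all 32851 promoter windows of this length, 12% held CCGGAA, 4.46% held TGACTCA and 32.7% held GGGCGG. Among the 35 windows kept for the member genes, some of which have several starts, the counts were 4, 1 and 23. The member windows were rich in G and C, with a median of 62.4% and 15 CG pairs against 52.4% and 6 over all windows. These matches describe letters and are not binding sites.

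Of the 69 probes 58 were well above background on all 8 arrays, 4 on none, and 62 probes of 34 genes passed the filter (well above background on at least 4 of 8 arrays, with at least 2 values per genotype) and were tested. Fgf3, Fgf5 and Fgf21 had no tested probe. Both Fgf21 probes and the Fgf5 probe were not well above background on any transgenic array, and 1 Fgf21 probe was so on 1 wild-type array. FGF21 and FGF23 are circulating hormones made mainly outside the lung, and 1 of the Fgf23 probes stayed near background in all 8 mice. On each array between 58 and 64 member probes were well above background.

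As a check of the labels, Scgb3a2 read 0.01, -0.39, 0.58 and -0.56 in wild-type mice 1 to 4 and 1.26, 0.47, 0.70 and 0.74 in transgenic mice 1 to 4. Wild-type mouse 3 lay within the transgenic values and the other wild-type mice below them. The log2 fold change was 0.88 ± 0.24 (SE), a fold of 1.84, with an unadjusted p of 0.0033 by limma and an exact permutation p of 0.0571 (two-sided, 4 against 4 mice, smallest possible 0.0286). It was positive on all 4 slides, between 0.16 and 1.26. The probe reads the endogenous gene and the transgene together. On all arrays the brightest probes of the listed markers of alveolar type II, club, ciliated and type I cells were well above background. The same held for those of adipose tissue and cardiac muscle. Listed markers that were not on the array are left out. The median signal of an array ranged from 204 to 277.5, and between 1.72 and 6.46% of spots were set aside as outliers. Each of the 4 slides held 1 wild-type and 1 transgenic mouse, and each of 2 scan days held 2 slides.

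No FGF gene differed between the genotypes after adjustment. With limma and Benjamini-Hochberg adjustment over 32653 tested probes, 0 members and 0 probes in all passed 0.05, so 0% was also the background. At an unadjusted p under 0.05, 3 of the 62 members passed, beside 2.09% of all tested probes, a share that would give 1.3 members. They were a probe of Fgfr4 and a probe of Fgf11, which were higher in transgenic mice (2 of 62, beside 1.12% of all tested probes), and the probe of Fgfbp1, which was lower (1 of 62, beside 0.974%). For Fgfr4 and Fgf11 another probe of the same gene gave a different value. Of the 62 members 30 were higher (50.4% of all tested probes were) and 32 lower in transgenic mice, with log2 fold changes from -0.42 to 0.60 and a median of -0.0025, against 0.00099 over all tested probes. A single probe, of Fgfr4, exceeded 1.5-fold with an unadjusted p under 0.05, as did 0.23% of all tested probes. The median SD within genotype was 0.23 for the members and 0.179 for all tested probes. Nothing in the labels says whether mice came from separate litters, and p-values measure the spread between these 8 mice.

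**Figure D1:**
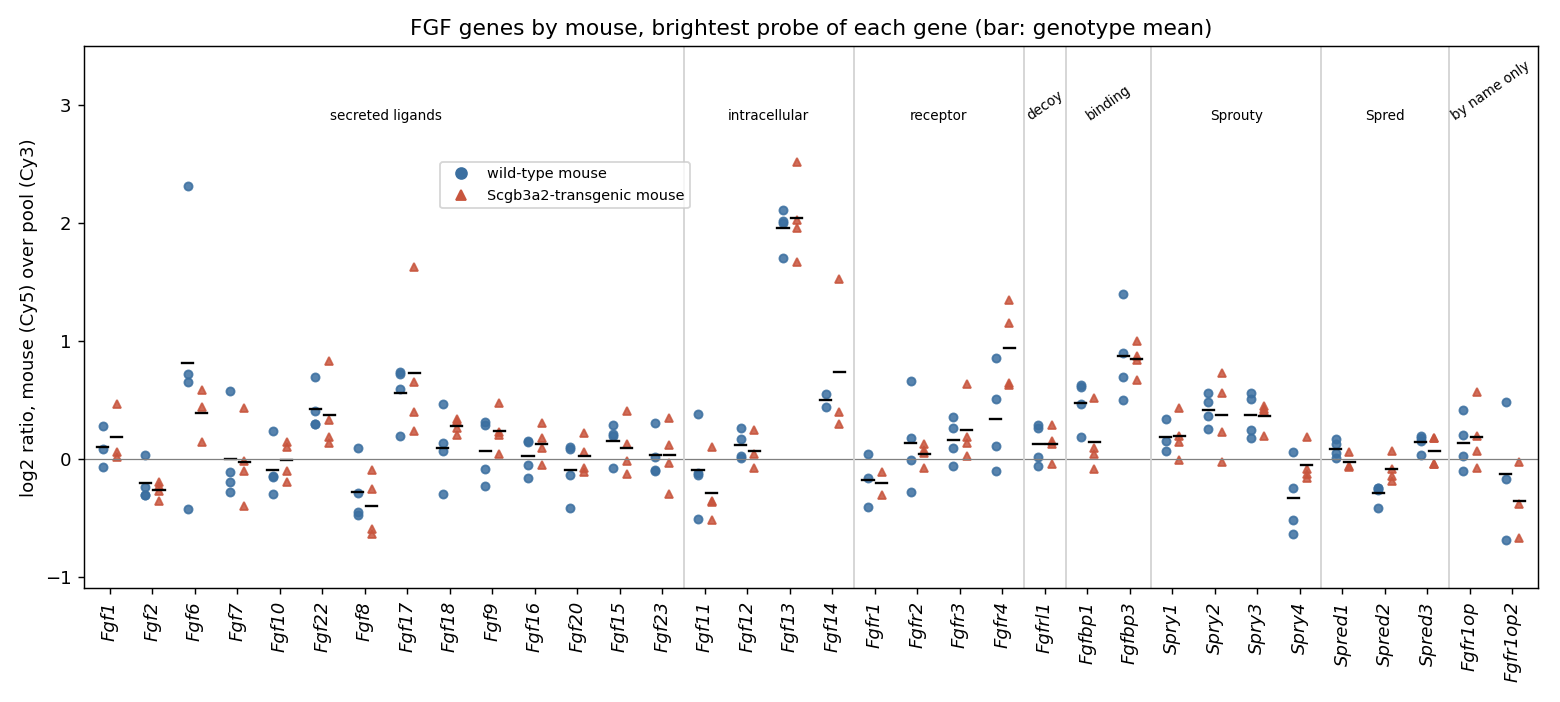
Log2 ratio of mouse over pool (y axis) for the brightest probe of each of the 34 tested genes (x axis, in order of role), with 1 circle per wild-type mouse, 1 triangle per Scgb3a2-transgenic mouse and a bar at each genotype mean. Circles and triangles overlap for every gene but Spred2, and a few single mice stand far out, among them wild-type mouse 3 for Fgf6 at 2.32 and transgenic mouse 1 for Fgf17 at 1.63.

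Among the secreted ligands 20 probes of 14 genes were tested, of which 10 were higher and 10 lower in transgenic mice and 0 had an unadjusted p under 0.05, beside the background of 2.09%. Their median log2 fold change was 0.01. FGF7, also called keratinocyte growth factor, is made by mesenchymal cells and acts on epithelium. Its probe read -0.28, -0.12, 0.57 and -0.20 in wild-type mice and -0.40, -0.02, -0.11 and 0.43 in transgenic mice. High values came from wild-type mouse 3 and transgenic mouse 4, which were on the same slide. The genotypes overlapped, with wild-type mouse 3 above all transgenic mice and transgenic mouse 1 below all wild-type mice. For Fgf7 the log2 fold change was -0.02, with a 95% interval from -0.48 to 0.44.

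Fgf10, which encodes the branching signal, read -0.16, -0.15, 0.23 and -0.30 in wild-type mice and -0.20, -0.10, 0.10 and 0.14 in transgenic mice. The highest values of each genotype again came from the mice of slide 1. For Fgf10 the log2 fold change was 0.08 (95% interval -0.22 to 0.37), and it was -0.07 on the first scan day and 0.22 on the second. Fgf22, of the same subfamily, gave log2 fold changes of -0.05 and 0.03 with its 2 probes.

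FGF9 and FGF18 are ligands of the developing lung mesenchyme and its epithelium. Fgf9 read -0.23, 0.28, 0.31 and -0.09 in wild-type mice and 0.04, 0.23, 0.20 and 0.47 in transgenic mice, and its log2 fold change was 0.17 (95% interval -0.15 to 0.49). Transgenic mouse 4 was above all wild-type mice and the other mice overlapped, and a second Fgf9 probe gave -0.06. Fgf18 read 0.14, -0.30, 0.07 and 0.47 in wild-type mice and 0.20, 0.26, 0.34 and 0.32 in transgenic mice. The 4 transgenic mice lay close together, inside the range of the wild-type mice, with SDs of 0.06 and 0.31. For Fgf18 the log2 fold change was 0.19 (95% interval -0.13 to 0.51). Without wild-type mouse 4 it was 0.31 with an unadjusted p of 0.0356 by limma.

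FGF1 and FGF2 are broadly acting mitogens that lack a classical secretion signal. The brighter Fgf1 probe had values in 6 mice, with 0.28, 0.08 and -0.07 in wild-type mice 1, 3 and 4 and 0.06, 0.01 and 0.47 in transgenic mice 1, 2 and 4. Its log2 fold change was 0.08, and that of the dimmer probe was -0.10. The brighter Fgf2 probe read -0.31, -0.24, 0.03 and -0.31 in wild-type mice and -0.19, -0.36, -0.23 and -0.27 in transgenic mice. All mice but wild-type mouse 3 were below the pool, and the second Fgf2 probe was below it in every mouse, between -0.95 and -0.38. The log2 fold changes of the Fgf2 probes were -0.06 (95% interval -0.30 to 0.18) and 0.03.

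The other ligands gave no clearer contrast. Fgf6 had the lowest log2 fold change of the members, -0.42 ± 0.48 (SE), from values of -0.43, 0.65, 2.32 and 0.72 in wild-type mice and 0.44, 0.14 and 0.58 in transgenic mice 1 to 3. Wild-type mouse 3 alone was far above the rest, and the second Fgf6 probe gave 0.13 with no value above 0.22. FGF6 is best known from muscle. Fgf17 read 0.19 to 0.73 in wild-type mice, and 1.63 in transgenic mouse 1 against 0.23 to 0.65 in the other transgenic mice. The 2 Fgf8 probes gave -0.11 and -0.20 and lay on opposite sides of the pool on average, at -0.34 and 0.21. Log2 fold changes of Fgf16 and Fgf20, of the FGF9 subfamily, were 0.11 and 0.11, and those of the hormone-like Fgf15 and Fgf23 were -0.06 and -0.0012.

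FGF11 to FGF14 are FGF homologous factors, which stay inside the cell and bind voltage-gated sodium channels rather than act as secreted ligands. Of 10 tested probes of these 4 genes 3 were higher and 7 lower in transgenic mice (50.4% of all tested probes were higher). An unadjusted p under 0.05 was found for 1 probe, beside 2.09% of all tested probes. It was the dimmer Fgf11 probe, which read -0.27, -0.25, -0.03 and -0.08 in wild-type mice and 0.06, 0.18, -0.06 and 0.16 in transgenic mice. Transgenic mouse 3 lay among the wild-type mice and the other transgenic mice above them, and the log2 fold change was 0.24 ± 0.10 (SE), with an unadjusted p of 0.0372 by limma and an exact permutation p of 0.0571. The brighter Fgf11 probe gave the opposite sign, -0.19 ± 0.19 (SE), from values of -0.14, -0.12, 0.38 and -0.51 in wild-type mice and 0.10, -0.36, -0.37 and -0.52 in transgenic mice.

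The 3 Fgf12 probes all gave negative log2 fold changes, of -0.05, -0.12 and -0.30. The lowest of these came from 0.75, 0.29, 0.34 and 0.09 in wild-type mice and 0.25, -0.14, -0.10 and 0.26 in transgenic mice. The genotypes overlapped, all 4 slides gave a negative difference, from -0.49 to -0.08, and the unadjusted p was 0.0773 by limma. With the slide as a block this p was 0.02 by limma, and with the scan day as a block 0.0223 by limma. The mean of the Fgf12 probes gave -0.16 with an unadjusted p of 0.0103 by limma, which did not pass the adjustment either. The brightest Fgf14 probe read 0.43 and 0.55 in wild-type mice 3 and 4 and 1.53, 0.39 and 0.29 in transgenic mice 1, 2 and 4. Transgenic mouse 1 was far above the other mice, the log2 fold change was 0.24 ± 0.33 (SE), and the other 2 Fgf14 probes gave -0.06 and -0.03.

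One of the 4 Fgf13 probes stood far above the pool in every mouse. It read 2.11, 1.70, 2.01 and 2.00 in wild-type mice and 2.52, 1.95, 2.03 and 1.67 in transgenic mice, while the next Fgf13 probe read between -0.14 and 0.53. The genotypes did not differ in this, with a log2 fold change of 0.09 (95% interval -0.29 to 0.46). The pool always carried Cy3, and per the methods each sample gave it an equal amount of RNA. The cause of the offset was not tested, and it is not read as a level of expression. Such offsets were common: of the 51 tested members with a value in all 8 mice, 8 were above the pool and 6 below it in every mouse (27.5%), as were 41% of all tested probes with 8 values. They cancel in the comparison of genotypes.

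Of the receptors, 12 probes of 4 genes were tested, of which 7 were higher and 5 lower in transgenic mice. FGFR4 binds many FGFs and is known above all as the receptor of FGF15 in the liver, and in the lung it takes part with FGFR3 in the formation of alveoli after birth. The brighter Fgfr4 probe read -0.11, 0.11, 0.51 and 0.86 in wild-type mice and 1.35, 0.64, 0.62 and 1.15 in transgenic mice. The means were 0.34 ± 0.43 and 0.94 ± 0.37 (SD, n = 4 each). Wild-type mouse 4 lay above 2 of the transgenic mice, and the other wild-type mice below all of them. The log2 fold change was 0.60 ± 0.22 (SE, 95% interval 0.11 to 1.09), a fold of 1.52, with an unadjusted p of 0.0202 by limma, an adjusted p of 1 and an exact permutation p of 0.114.

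The difference of this Fgfr4 probe was uneven between batches, and the estimate from the other probe was smaller. On the first scan day it was 1.05 and on the second 0.15, and on slides 1 to 4 it was 0.65, 1.45, 0.54 and -0.24. The dimmer Fgfr4 probe read 0.21, 0.27, 0.76 and 0.36 in wild-type mice and 0.46, 0.51, 0.11 and 0.70 in transgenic mice. It gave a log2 fold change of 0.05 (95% interval -0.29 to 0.39), below the 0.60 of the brighter probe. The difference between the probes was not tested. The mean of both probes gave 0.32 with an unadjusted p of 0.156 by limma.

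**Figure D2:**
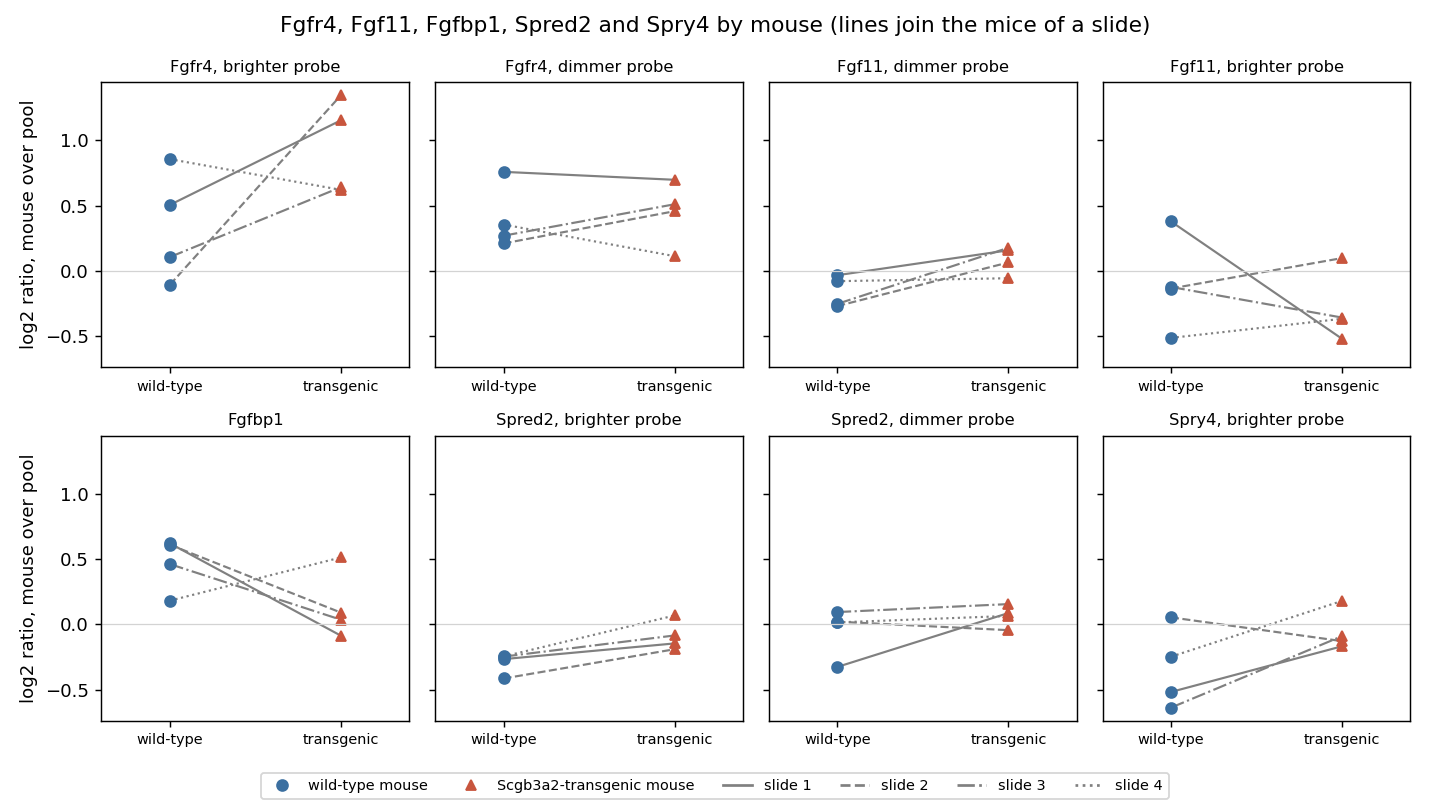
Log2 ratio of mouse over pool (y axis) in wild-type and Scgb3a2-transgenic mice (x axis) for probes of Fgfr4, Fgf11, Fgfbp1, Spred2 and Spry4, with 1 point per mouse and lines that join the mice of a slide. The brighter Fgfr4 probe rises on slides 1 to 3 and falls on slide 4, Fgfbp1 does the reverse, and only the brighter Spred2 probe has all transgenic mice above all wild-type mice.

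FGFR2 is the epithelial receptor of FGF7 and FGF10. Its brightest probe read -0.01, 0.17, 0.66 and -0.28 in wild-type mice and -0.07, 0.13, 0.05 and 0.07 in transgenic mice, the next 0.01, 0.24, 0.59 and -0.08 against 0.07, 0.38, 0.27 and 0.18, and the dimmest -0.23, 0.47, 0.67 and -0.13 against 0.50, 0.01, 0.11 and 0.36. Wild-type mouse 3 was the highest mouse with all 3 probes. The log2 fold changes were -0.09, 0.04 and 0.05, and the first had a 95% interval from -0.47 to 0.29. With the brightest probe the SD was 0.40 in wild-type mice and 0.08 in transgenic mice.

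Fgfr1, a receptor found on many mesenchymal cells, had 4 tested probes with log2 fold changes between -0.03 and 0.13. The brightest read -0.41, 0.04 and -0.17 in wild-type mice 1, 3 and 4 and -0.11 and -0.31 in transgenic mice 1 and 3, since the other spots were set aside as outliers. The genotypes overlapped with all 4 probes, and 2 of the dimmer ones were below the pool in every mouse with a value. Fgfr3 read 0.35, 0.26, -0.07 and 0.09 in wild-type mice and 0.02, 0.19, 0.14 and 0.63 in transgenic mice, with a log2 fold change of 0.08 (95% interval -0.24 to 0.41). Its other probes gave -0.21 and -0.05, so the sign depended on the probe. The first of these had no value in transgenic mice 3 and 4, and a fit with slide as a block gave -0.37 with an unadjusted p of 0.0387 by limma, against 0.194 by limma without the block. Fgfrl1, whose product resembles an FGF receptor but lacks the kinase, read 0.26, -0.06, 0.28 and 0.01 in wild-type mice and -0.05, 0.12, 0.15 and 0.28 in transgenic mice. Its log2 fold change was 0.0025 (95% interval -0.26 to 0.26).

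FGFBP1 is a secreted carrier that frees FGFs from heparan sulfate in the matrix. Its probe read 0.61, 0.46, 0.62 and 0.18 in wild-type mice and 0.09, 0.04, 0.51 and -0.09 in transgenic mice. The means were 0.47 ± 0.20 and 0.14 ± 0.26 (SD, n = 4 each), and wild-type mouse 4 and transgenic mouse 3 crossed over. The log2 fold change was -0.33 ± 0.15 (SE, 95% interval -0.66 to -0.0020), with an unadjusted p of 0.0465 by limma, an adjusted p of 1 and an exact permutation p of 0.0857. On slides 1 to 4 it was -0.71, -0.52, -0.43 and 0.33, and on the scan days -0.61 and -0.05. The unadjusted p rose over 0.05 with the scan day as a block (0.0556 by limma), with the slide as a block (0.0698 by limma) and with Agilent's processed signals (0.0936 by limma). Fgfbp3, another carrier, was above the pool in every mouse with its brighter probe, between 0.50 and 1.39, and its log2 fold changes were -0.03 and 0.11.

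The marker lists were chosen with earlier results of these data known, so their counts below are descriptive and test no cell type. Markers of several cell types differed in mean between the genotypes on the same arrays, but no list was tested and no marker probe passed the adjustment. Other lists hardly differed. The macrophage mean was -0.857 in wild-type and -0.835 in transgenic mice, and the ciliated mean 0.715 and 0.714. The mean log2 ratio of the alveolar type II markers was 1.04, 0.73, 1.44 and 0.32 in wild-type mice and 0.02, 0.57, 0.59 and -0.03 in transgenic mice. These means do not rest on the same genes, since Sftpc, Sftpb and Lamp3 lacked values in some mice. Abca3, Sftpa1 and Sftpd, with values in all 8 mice, gave log2 fold changes of -0.01, -0.75 and -0.47. Of the 10 tested type II probes 9 were lower in transgenic mice. Of these, 3 had an unadjusted p under 0.05, beside 2.09% of all tested probes. Probes of the same gene were counted separately, here and for the other lists. All 7 tested cardiac muscle probes and all 7 adipose probes were lower in transgenic mice as well, and so were all 6 type I cell probes. Higher in transgenic mice were 8 of 10 fibroblast probes and 6 of 9 lymphocyte probes, beside 50.4% of all tested probes. Of the lymphocyte probes 2 had an unadjusted p under 0.05 by limma, both of Ms4a1, beside 2.09% of all tested probes. So did 3 of 7 cardiac muscle, 2 of 10 fibroblast, 1 of 7 adipose and 1 of 7 skeletal muscle probes. It held for 0 of 6 type I, 0 of 4 macrophage, 0 of 3 club and 0 of 2 ciliated probes. Endothelial probes were split, with 3 higher and 2 lower. Kdr was higher, with a log2 fold change of 0.63 (unadjusted p of 0.00981 by limma). A Tek probe was lower, at -0.44 (unadjusted p of 0.0113 by limma). The endothelial marker mean was 0.24 in wild-type and 0.63 in transgenic mice, again over unequal genes. Among the brightest endothelial probes only those of Cldn5 and Kdr had values in all 8 mice. The brightest probe of each of these markers was well above background in all 8 mice, so none was at 0. A dimmer Col3a1 probe, counted above, was well above background in 3 mice of each genotype. Wild-type mouse 4 was the lowest wild-type mouse for Fgfbp1 and for the means of the type II, cardiac muscle and adipose markers. Transgenic mouse 3 was the highest transgenic mouse for each of these. Both mice were on slide 4. In RNA from whole lung, fewer cells of a type and less RNA per cell cannot be told apart, and the part of the markers in the Fgfr4 and Fgfbp1 results was not tested.

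**Figure D3:**
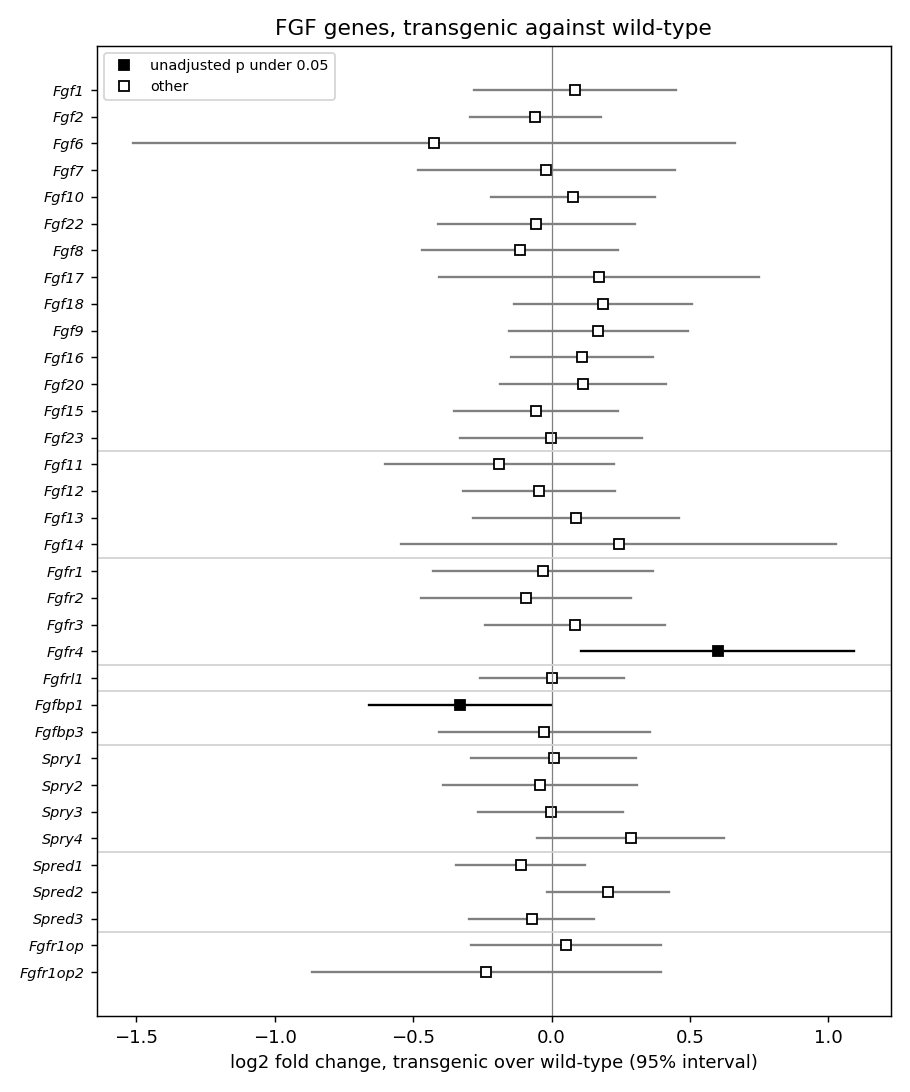
Log2 fold change of transgenic over wild-type (x axis) for the brightest probe of each of the 34 tested genes (y axis, in order of role), with lines for the 95% interval from limma. The intervals of Fgfr4 and Fgfbp1, filled squares, exclude 0 without adjustment, and those of the other 32 genes include it.

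The Sprouty and Spred inhibitors, the feedback arm, gave 12 tested probes of 7 genes, of which 6 were higher and 6 lower in transgenic mice. An unadjusted p under 0.05 was found for 0 of them, beside 2.09% of all tested probes. Spry4 had the second highest log2 fold change among the members, 0.29 ± 0.15 (SE, 95% interval -0.05 to 0.62), with an unadjusted p of 0.0864 by limma. Its brighter probe read 0.05, -0.64, -0.52 and -0.25 in wild-type mice and -0.13, -0.09, 0.18 and -0.17 in transgenic mice. Wild-type mouse 1 lay among the transgenic mice and the other wild-type mice below them all. Without that mouse the log2 fold change was 0.42 with an unadjusted p of 0.0107 by limma. The dimmer Spry4 probe, below the pool in every mouse, gave 0.20 with a 95% interval from -0.18 to 0.59.

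SPRY2 is the Sprouty studied most in lung branching. Its brighter probe read 0.36, 0.26, 0.56 and 0.48 in wild-type mice and -0.02, 0.56, 0.72 and 0.22 in transgenic mice, and its log2 fold changes were -0.04 (95% interval -0.39 to 0.31) and -0.0042. The transgenic mice spread more widely than the wild-type mice, with SDs of 0.34 and 0.13, and all mice but transgenic mouse 1 were above the pool. Spry1 read 0.15, 0.34 and 0.06 in wild-type mice 1, 3 and 4 and -0.01, 0.43, 0.15 and 0.20 in transgenic mice, with a log2 fold change of 0.0070 (95% interval -0.29 to 0.30). Spry3 was above the pool in every mouse, between 0.17 and 0.55, with a log2 fold change of -0.0037.

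Spred2 was the only member whose genotypes did not overlap. Among all tested probes 1.98% did not, with 1.07% higher in transgenic mice, as Spred2 was, and 0.903% lower. Its brighter probe read -0.41, -0.25, -0.27 and -0.25 in wild-type mice and -0.19, -0.08, 0.07 and -0.15 in transgenic mice. All 4 transgenic mice were above all 4 wild-type mice, and the difference was positive on every slide, between 0.12 and 0.31. The log2 fold change was 0.21 ± 0.10 (SE), a fold of 1.15, with an unadjusted p of 0.0624 by limma and an exact permutation p of 0.0286, the smallest that 4 against 4 mice allow. Over the alternatives the unadjusted p of this probe by limma ranged from 0.027 with array weights to 0.408 with median centring. The dimmer Spred2 probe gave 0.11 (95% interval -0.14 to 0.37), with overlapping genotypes.

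The Spred1 probes disagreed in level and in sign. The brightest read 0.05, 0.12, 0.0031 and 0.17 in wild-type mice and -0.06, -0.07 and 0.05 in transgenic mice 1 to 3. The others were below the pool in every mouse, between -0.97 and -0.09 and between -1.32 and -0.18. With both of these, wild-type mouse 3 and transgenic mouse 4, the mice of slide 1, were highest within their genotype. Log2 fold changes of the 3 Spred1 probes were -0.11, -0.06 and 0.08, and that of Spred3 was -0.07. The proteins of Fgfr1op and Fgfr1op2 share only a name with the receptors, being partners in gene fusions with FGFR1, and their probes gave log2 fold changes between -0.24 and 0.05.

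**Figure D4:**
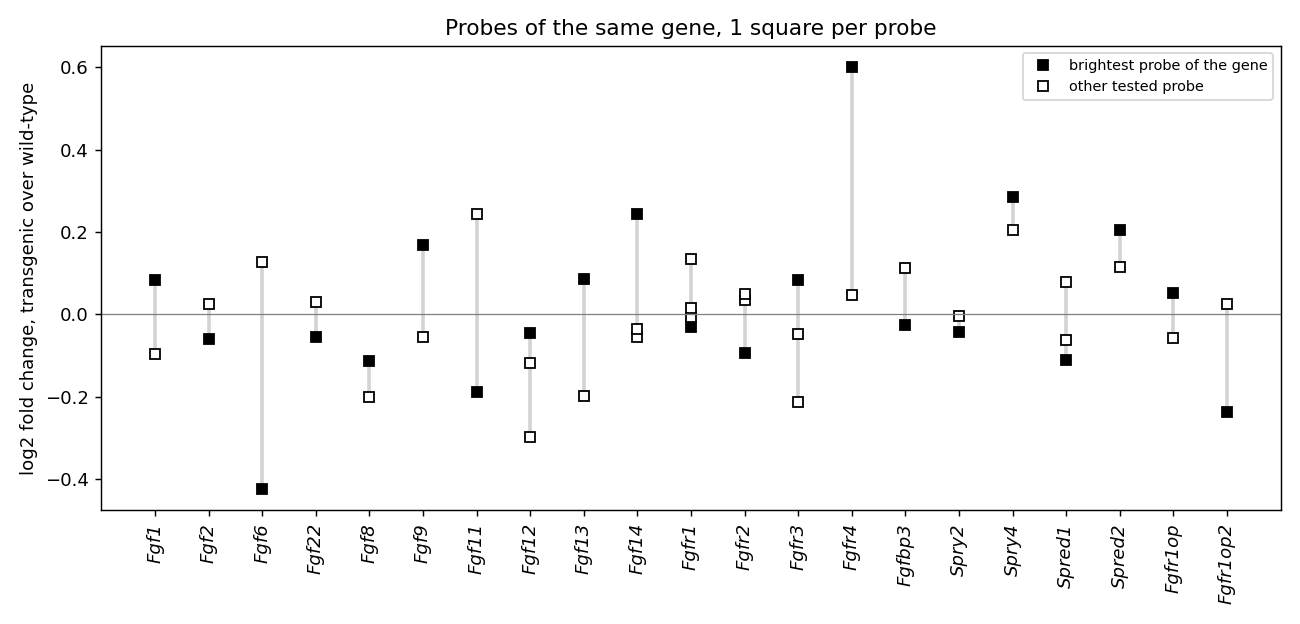
Log2 fold change of transgenic over wild-type (y axis) for each tested probe of the 21 genes with several tested probes (x axis), with the brightest probe of the gene filled. Squares of the same gene lie on both sides of 0 for 15 of the 21 genes, and the gap is widest for Fgf6 and Fgfr4.

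Of 37 member genes 23 had several probes, 21 had several tested probes, and in 15 of these (71.4%) the probes lay on both sides of 0. Among all 7285 genes with several tested probes 51.1% had probes on both sides. Most fold changes were small beside their errors, and a sign near 0 carries little weight. Fgf8, Fgf12, Fgfr4, Spry2, Spry4 and Spred2 were the 6 genes whose tested probes all had the same sign.

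Both mice of slide 1 were the highest for Fgf7 and Fgf10, while for Fgfr2 this held for wild-type mouse 3 alone. Of the 51 tested members with all 8 values, the 2 highest mice shared a slide in 18 (35.3%), and in 10 of these (19.6%) the slide was slide 1. Over all tested probes with 8 values the shares were 25.1% and 7.36%. The 2 lowest mice shared a slide in 7 members (13.7%), against 21.3% of all tested probes. Wild-type mouse 3, of slide 1, was the highest mouse for 14 of the 51 members, and the other mice for 2 to 9. Probes of the same gene enter these counts more than once, and no test was made. The slide held 1 mouse of each genotype.

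**Figure D5:**
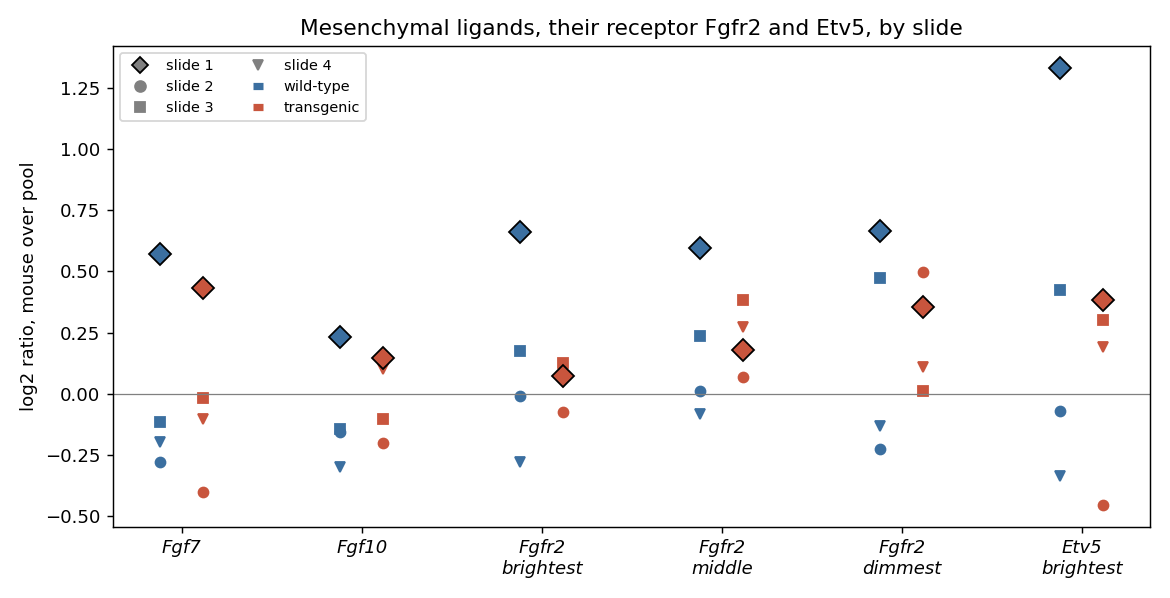
Log2 ratio of mouse over pool (y axis) for Fgf7, Fgf10, the 3 probes of Fgfr2 and the brightest probe of Etv5 (x axis), with 1 point per mouse, shapes for slides and colours for genotypes. The outlined diamonds of slide 1 are the highest points for Fgf7 (0.57 and 0.43) and Fgf10 (0.23 and 0.14), and the wild-type diamond is the highest for each Fgfr2 probe and for Etv5 at 1.33.

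The rest of the pathway was described by lists of 71 further genes on the array, from co-receptors and heparan sulfate proteins to transducers and targets. Of their 126 tested probes 57 were higher and 69 lower in transgenic mice, the median log2 fold change was -0.02, and 1 had an unadjusted p under 0.05, beside 2.09% of all tested probes. The transducers had 19 probes higher and 32 lower, the targets 9 higher and 14 lower, the co-receptors 9 higher and 7 lower, the heparan sulfate core proteins 8 higher and 6 lower, and the enzymes of heparan sulfate 12 higher and 10 lower. The probe that passed was of Ccnd1, cyclin D1, which drives entry into the cell cycle. It read -0.36, -0.47, -0.46 and -0.59 in wild-type mice and -0.20, -0.31, -0.27 and -0.14 in transgenic mice. All transgenic mice were above all wild-type mice, with a log2 fold change of 0.24 ± 0.10 (SE), an unadjusted p of 0.0295 by limma, an adjusted p of 1 and an exact permutation p of 0.0286. A probe each of Grb2 and Frs3 also did not overlap between genotypes, but with 5 values each, beside 1.98% of all tested probes.

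Dusp6 and Etv5, known targets of FGF signalling, had no unadjusted p under 0.05. Dusp6, a phosphatase that turns off ERK, read -0.64, -0.40 and -0.30 in wild-type mice 1, 3 and 4 and -0.16, -0.46 and -0.15 in transgenic mice 1 to 3, with a log2 fold change of 0.19 (95% interval -0.14 to 0.52). Etv5, an ETS factor downstream of FGFR2 in type II cells, read -0.07, 0.42, 1.33 and -0.34 in wild-type mice and -0.46, 0.30, 0.19 and 0.38 in transgenic mice. Wild-type mouse 3, also the highest for Fgfr2, was far above the rest. The log2 fold changes of Etv5 were -0.23 (95% interval -0.93 to 0.47) and -0.12. Etv4 had values in 4 mice, between 0.06 and 0.62, and was not tested.

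Feedback genes could also be compared across mice. Of 8 fixed pairs of pathway genes, 3 had a value in all 8 mice. Spry2 and Spry4 correlated with r = 0.23 (exact permutation p = 0.578) and rho = 0.36 (exact permutation p = 0.389) over 8 mice. Etv5 and Spry2 gave r = 0.40 (exact permutation p = 0.327) and rho = 0.21 (exact permutation p = 0.619), and r = -0.26 without the 2 mice farthest from the median of Etv5. Fgfr2 and Spry2 gave r = 0.26 (exact permutation p = 0.547) and rho = 0.24 (exact permutation p = 0.582). After Benjamini-Hochberg adjustment over the 3 pairs the exact permutation p was 0.578 for every r and 0.619 for every rho. Scan days held 4 mice each, too few for a correlation.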

How the data were processed

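Whole-lung RNA of each mouse was hybridised in Cy5 to an Agilent whole mouse genome 4x44K array beside a Cy3 reference pool, with no dye swap. The authors deposited Agilent Feature Extraction output with the intensity of each spot and channel, and a log2 ratio matrix in which all 39811 probes with a single spot equal the processed ratios within 0.001, with medians per array from -0.05 to 0.04. The labels give version 11.0.1.1 of the software and the file headers 10.10.1.1.

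Log2 ratios of Cy5 over Cy3 were recomputed from raw median signals (R 4.3.3, limma 3.58.1, the data.table package 1.17.8). Normexp (offset 50) was fitted on unflagged spots, loess was applied within arrays, outlier-flagged spots were left out, and repeated spots were averaged per probe. The offset shrinks the change of dim probes. Probes well above background in Cy5 on at least 4 of 8 arrays, with at least 2 values per genotype, were tested with limma (two-sided, Benjamini-Hochberg adjustment over 32653 probes) and, for single probes, with the exact permutation test over 70 assignments. The fit was tested on simulated data. Genes are given by their brightest probe, and their other probes by count or where they disagree. Values per mouse are given for a fixed set of pathway genes, for an unadjusted p under 0.05 or genotypes without overlap, and for the 3 largest changes in each direction. Figures were drawn with matplotlib 3.10.9.

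Members, gene lists, marker lists and the setting of normexp were chosen with earlier results of these data known. Replicate numbers were not used as pairs, since same-numbered mice deviated together with correlations of 0.32, 0.25, -0.08 and -0.21. The slide, which held 1 mouse of each genotype, was not in the main fit either. With the slide as a block 3.7% of all tested probes had an unadjusted p under 0.05 by limma, against 2.09% without it. With 4 arrays per genotype, precision is limited by array number. Alternatives were other background corrections, normalisations and filters, array weights, the methods' t-test, blocks and leaving out each mouse.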

Additional observations from a re-analysis of the deposited data

Results flagged for a closer look

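Of 56 groups of 4 mice tested for a single mouse far from the others, 1 was flagged, while chance flags about 1 in 20 groups. With the brighter Spred2 probe, wild-type mouse 1 was at -0.414, below the other wild-type mice at -0.27 to -0.25, and its gap to the nearest was 0.879 of the range of the group. Without this mouse the log2 fold change of Spred2 was 0.16 with an unadjusted p of 0.15 by limma, against 0.21 and 0.0624 with it.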

How the results depend on the processing

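No member passed the adjusted threshold in limma under any alternative. The count of members with an unadjusted p under 0.05 was 3, beside 2.09% of all tested probes, and these shares moved with the setting too. The count was 1 with normexp fitted on all spots (Spry4, beside 1.2%), 6 with array weights (beside 3.52%) and 4 with the slide as a block (beside 3.7%), which lost Fgfbp1 and gained a probe each of Fgf12 and Fgfr3. When each mouse was left out in turn it ranged from 0 to 6. It was 0 without wild-type mouse 2 (beside 1.58%) or transgenic mouse 4 (beside 3.19%), 1 without wild-type mouse 1 (beside 2.14%) or transgenic mouse 2 (beside 1.5%), 5 without wild-type mouse 4 (beside 3.63%) and 6 without transgenic mouse 1 (beside 3.33%). The count among the other pathway genes was 1, and it was 2 with normexp fitted on all spots, with no filter on dim probes, with the methods' t-test and with the scan day as a block, 3 with array weights, 5 with the slide as a block and 0 to 7 when mice were left out. With the replicate number as a block the counts were 2 members and 2 other pathway genes. Same-numbered mice of replicates 1 and 2 also shared a slide, and mice of the same slide deviated together with correlations of 0.30, 0.32, 0.25 and 0.08.

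The brighter Fgfr4 probe kept its sign throughout, and its unadjusted p exceeded 0.05 with normexp fitted on all spots (0.0514 by limma), with array weights (0.075 by limma), with the methods' t-test (0.0768), with the mean of its probes and without wild-type mouse 1 or 2 or transgenic mouse 1 or 4. Fgfbp1 kept its sign and exceeded 0.05 in 14 alternatives. Over 761 values of 34 genes, 82 had the other sign, none of them for Fgfr4 or Fgfbp1. Scgb3a2 stayed between 0.73 and 1.11, and no pair of feedback genes passed. The cause of these changes was not tested. Dim probes and 4 mice per genotype limit what could be seen.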
